A study of Homo sapiens with 12 samples.

Results

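The class I peptide processing and loading genes were followed in FaDu cells, an established human head and neck squamous cell carcinoma line, with and without STING and with and without ionizing radiation (RT). The set was taken by gene symbol and holds 10 of the 58288 genes listed: TAP1, TAP2, TAPBP, PSMB8, PSMB9, PSMB10, PSME1, PSME2, NLRC5 and ERAP1. All 10 were among the 15973 genes tested. STING WT cells carried a non-targeting guide RNA and STING KO cells 1 guide RNA against STING, in each case with Cas9 and after selection in puromycin. Whether the KO cells were a clone or a pool was not stated, and with 1 KO line the loss of STING and the particular line cannot be told apart. Cells received no radiation (0 Gy) or 2 Gy on each of 4 days. The time from the last dose to RNA collection was not stated in the sources used here. Each of the 4 groups holds 3 libraries, which makes 12 libraries. The comparisons ask how these genes depend on STING, before and after RT, and how each line responded to RT.

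Cells display fragments of their own proteins on class I molecules for inspection by cytotoxic T cells. The fragments are cut by the proteasome, carried from the cytosol into the endoplasmic reticulum by the transporter TAP, trimmed by aminopeptidases and loaded with the help of tapasin. Interferons raise much of this pathway and replace the standard catalytic subunits of the proteasome with the inducible ones of the immunoproteasome, and STING, a sensor adaptor for cytosolic DNA signalling, is one route to interferon production.

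Levels are given as transcripts per 1000000 (TPM), a per-length and per-library share of the RNA, for polyadenylated RNA. Every library sums to 1000000, so the read depth behind a value is unknown and the only error is that among libraries of the same group. Nothing in the labels says that these libraries came from separate cultures, so the p-values measure the spread between libraries, which may be technical. A lower TPM can reflect less RNA per cell or fewer expressing cells, which bulk RNA cannot tell apart. TMEM173, the gene for STING, was at 21.1 to 26.1 TPM in the 6 STING WT libraries and at 5.18 to 7.41 TPM in the 6 STING KO libraries. All 6 squamous epithelial markers were at 66.2 TPM or more in every library. KRT17 was 18.3% lower in STING KO than in STING WT cells at 0 Gy and 27.5% lower after RT, and KRT14 was 18% higher at 0 Gy. Of 6 immune cell markers, 4 were under 1 TPM in all libraries, and the summed level of the 6 was 18.9 to 25.3 TPM in STING WT cells and 18.9 to 28.4 TPM in STING KO cells at 0 Gy, and 27.8 to 34.4 and 20.6 to 28.1 TPM after RT; 1 of them, CD14, was higher in STING KO cells at 0 Gy. The 5 fibroblast and endothelial markers, 3 of them under 1 TPM in all libraries, summed to between 9.29 and 12.6 TPM in the 4 groups. The part of these markers in the results was not tested.

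The genes lie in a few places in the genome (GRCh38, GENCODE release 29). TAP2 (ENSG00000204267.13), PSMB8 (ENSG00000204264.8), TAP1 (ENSG00000168394.10) and PSMB9 (ENSG00000240065.7) lie together within the class II part of the major histocompatibility complex. They fall between 32821833 and 32859585 on chromosome 6, the first 3 on the minus strand and PSMB9 on the plus strand. The annotated extent of PSMB9 (32844136-32859585) contains that of TAP1 (32845209-32853978) and overlaps that of PSMB8, but PSMB9 and TAP1 share no exon bases. TAPBP (ENSG00000231925.11) lies farther along at chr6:33299694-33314387. PSME1 (ENSG00000092010.14) and PSME2 (ENSG00000100911.15) are neighbours on chromosome 14, at chr14:24136158-24138967 and chr14:24143362-24147570. NLRC5 (ENSG00000140853.15) at chr16:56989485-57083531 and PSMB10 (ENSG00000205220.11) at chr16:67934502-67937087 share a chromosome, and ERAP1 (ENSG00000164307.12) lies at chr5:96760810-96808100. Whether reads were counted by strand was not stated, and some of these genes share exon bases with a gene on the opposite strand. PSMB8 shares 20.6% of its exon bases with PSMB8-AS1 and 4.64% with PSMB9, and TAP1 shares 9.49% with PSMB8-AS1. PSMB8-AS1 itself averaged 1.87 to 3.88 TPM across the groups. Higher levels were found for CAST, which shares 3.76% of the exon bases of ERAP1 and averaged 177 to 202 TPM. RNF31, which shares 6.03% of those of PSME2, averaged 29.7 to 36.3 TPM.

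**Figure D1:**
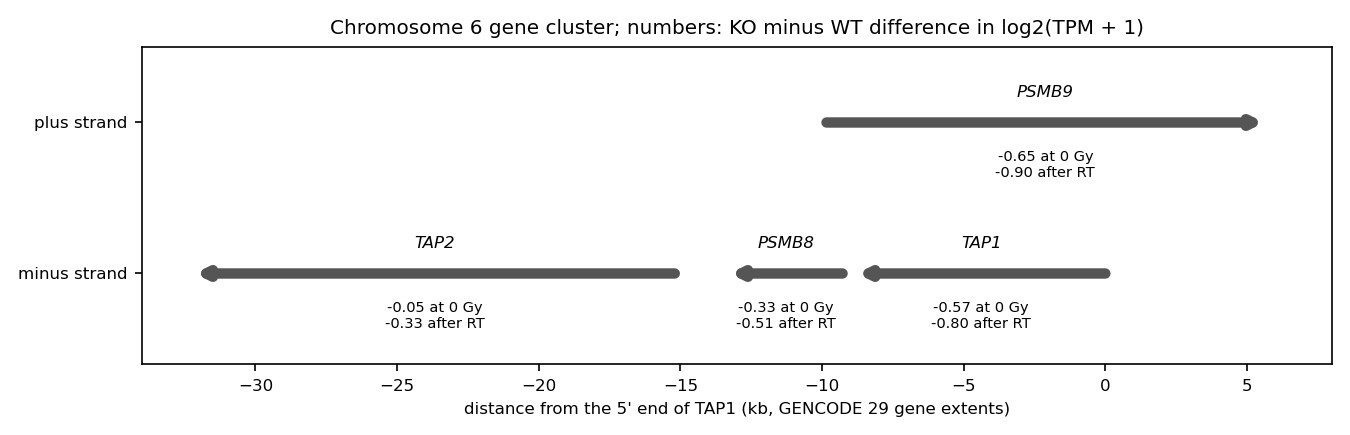
Map of the 4 neighbouring genes on chromosome 6, with distance from the 5′ end of TAP1 in kb on the horizontal axis, strands on the vertical axis and arrows pointing in the direction of transcription. The numbers under each gene are its STING KO minus STING WT differences in log2(TPM + 1), which ran from -0.65 for PSMB9 to -0.05 for TAP2 at 0 Gy and from -0.90 to -0.33 after RT.

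Interferons act on promoters through the interferon-stimulated response element, whose core GAAANNGAA was sought on both strands in the RefSeq promoters (GRCh38.p14, 250 bases before to 50 after each start). Of 34796 distinct promoters, 8.11% hold that core. It was found in 8 of the 9 genes that had a promoter entry, where a match at any start of a gene counted. TAP1, PSMB8 and ERAP1 have 2 promoters each and hold the core in only 1 of them, so the share of genes is not like for like with the share of promoters. No match of the core overlapped a match of another motif searched. The stretches below are shown because the same core sits in the promoters both of genes that passed the test between STING KO and STING WT cells, TAP1 and PSMB8, and of genes that did not, TAP2, TAPBP, PSMB10 and PSME2. Each runs 5′ to 3′ on the gene's own strand with 7 bases on either side, and the core, on either strand, is in capitals. The coordinates cover the whole stretch, whereas the distance to the start is counted from the first base in capitals. The PSMB8 core runs across the start.
TAP1, chr6:32853816-32853844, minus strand, starting 133 bases before the start: ggccgctTTCGATTTCGCTTTCccctaaa
PSMB8, chr6:32844035-32844057, minus strand, starting 3 bases before the start: tgtggctTTCGCTTTCacttcct
TAP2, chr6:32838782-32838804, minus strand, starting 58 bases before the start: gggaagcGAAAGCGAAagctgcc
TAPBP, chr6:33314077-33314105, minus strand, starting 20 bases before the start: tttggagGAAAGTGAAAGTGAAaggagga
PSMB10, chr16:67936856-67936878, minus strand, starting 21 bases before the start: taaaggcGAAAGCGAAagcagga
PSME2, chr14:24146623-24146645, minus strand, starting 28 bases before the start: ggggagtGAAAGCGAAagcccgg
The TAP1 and TAPBP stretches each hold 2 overlapping cores. PSME1 and ERAP1 hold 1 core each, just after the start. PSMB9 has no core in its own window, but its start lies 488 bases from that of TAP1 on the other strand, and the nearer of the TAP1 cores is 355 bases from it. Because that interval lies between the RefSeq starts of 2 genes that were both lower in STING KO cells, the 250 bases upstream of the TAP1 start are shown whole. They lie at chr6:32853705-32853954 on the minus strand, with the response element cores and a kappa-B match in capitals.
TAP1 upstream: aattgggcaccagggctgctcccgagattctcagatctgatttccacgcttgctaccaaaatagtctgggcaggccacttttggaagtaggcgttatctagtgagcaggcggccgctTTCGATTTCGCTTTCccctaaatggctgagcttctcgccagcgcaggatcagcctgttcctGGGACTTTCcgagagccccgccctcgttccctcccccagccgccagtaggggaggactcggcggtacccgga
Of the other motifs, kappa-B (GGGANTTTC, in 1.29% of all promoters) matched TAP1 alone among the 9 genes. The gamma-activated site (TTCNNNGAA, 7.67% of all promoters) matched PSMB8 and, at another start, TAP1. Letters of the cyclic AMP response element (TGACG, 24.5%) and the CCAAT box (CCAAT, 34.6%) each matched 3 of the 9 genes. The CCAAT matches of TAP1 and PSMB9 are the same site, within the 13 bases that their windows share. These matches describe the sequence and do not show binding.

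The 10 genes spanned 10.1 to 319 TPM. In unirradiated STING WT cells PSME1 was the most abundant with 310 TPM on average, followed by TAPBP (170 TPM) and PSME2 (159 TPM), whose libraries overlapped each other. PSMB8 (80 TPM) and TAP2 (56.3 TPM) came next, clear of their neighbours in the order. PSMB9, ERAP1 and TAP1 averaged 40.8 to 42.2 TPM and could not be ordered beyond the spread of their libraries, and PSMB10 (27 TPM) and NLRC5 (18.7 TPM) were lowest. In unirradiated STING KO cells TAP1 and PSMB9 stood below ERAP1 and PSMB10, at 27.2 and 26.6 TPM, while NLRC5 remained lowest in all 4 groups.

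**Figure D2:**
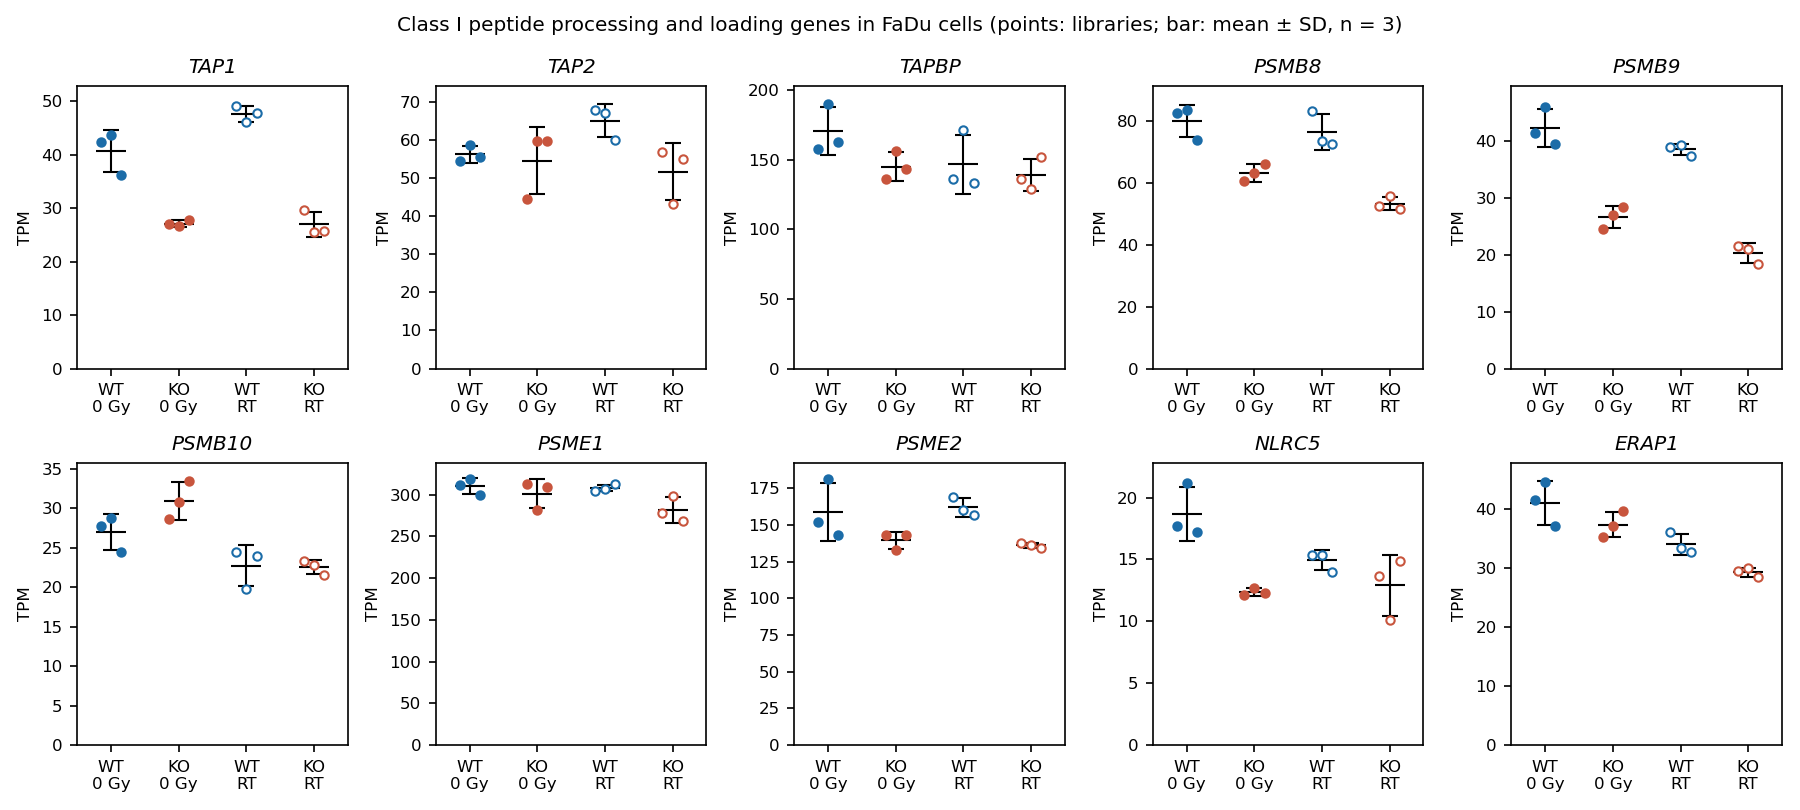
TPM of each of the 10 genes (vertical axes, each starting at 0) in the 4 groups, with 1 point per library and bars for the mean ± SD (n = 3). TAP1, PSMB8, PSMB9 and, narrowly at 0 Gy, PSME2 were lower in every STING KO library than in every STING WT library of the same radiation arm. PSMB10, TAP2, TAPBP, PSME1, NLRC5 and ERAP1 overlapped between the lines in at least 1 arm.

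TAP1 and PSMB9, which are transcribed away from each other at their neighbouring RefSeq starts, were lower in STING KO cells both before and after RT. Among the 10 genes, TAP1, PSMB8 and PSMB9 passed the threshold (limma, Benjamini-Hochberg adjusted p under 0.05 over all genes tested) in both arms, each of them lower in STING KO cells, and the other 7 passed in neither. At 0 Gy, 3 of the 10 genes were called against a background of 1.73% of all tested genes, and 9 of the 10 had a lower mean in STING KO cells. The median of the 10 log2 fold changes was -0.20, beside -0.021 over all genes. After RT, 3 of the 10 were called against a background of 3.59%, all 10 had a lower mean, and the median was -0.23 beside -0.017 over all genes. The arms share no library: 9 of the 10 genes had negative log2 fold changes in both, as did 36% of all genes tested. The libraries of the 2 lines did not overlap for 6 of the 10 genes at 0 Gy (20.6% of all genes) and for 7 of the 10 after RT (24.1% of all genes). Log2 fold changes are fitted differences in log2(TPM + 1), and percentages compare mean TPM.

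The transporter is assembled from TAP1 and TAP2, and between the lines only TAP1 passed the threshold. TAP1 was at 42.4, 43.7 and 36.3 TPM in unirradiated STING WT cells and at 27, 26.6 and 27.8 TPM in unirradiated STING KO cells. Irradiated cells had 49.1, 46.2 and 47.8 TPM in STING WT and 29.7, 25.5 and 25.8 TPM in STING KO cells. The highest STING KO library lay below the lowest STING WT library in each arm. The mean was 33.4% lower at 0 Gy (log2 fold change -0.57, SE 0.078, limma adjusted p = 0.0042) and 43.3% lower after RT (log2 fold change -0.80, SE 0.078, limma adjusted p = 0.00024). At 0 Gy the call was lost when only the 6 libraries compared were fitted (limma adjusted p = 0.054).

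TAP2 was at 54.4, 58.8 and 55.5 TPM in unirradiated STING WT cells and at 44.4, 59.8 and 59.6 TPM in STING KO cells. After RT the values were 67.9, 67.1 and 60.1 TPM in STING WT and 56.9, 43.1 and 55 TPM in STING KO cells. The lines overlapped at 0 Gy, where the log2 fold change was -0.054 with a 95% interval from -0.34 to 0.23 (limma adjusted p = 0.9). They did not overlap after RT, where it was -0.33 with an interval from -0.62 to -0.049, which did not pass (limma adjusted p = 0.2). TAP2 shares 32.3% of its exon bases with a readthrough gene on the same strand, AL669918.1, which stayed at or below 0.841 TPM in every library.

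The balance between the transporter subunits separated the lines in each arm. The TAP1/TAP2 ratio of TPM was 0.725 ± 0.0642 (SD, n = 3) in unirradiated STING WT cells and 0.507 ± 0.0892 (SD, n = 3) in STING KO cells. The irradiated cells stood at 0.736 ± 0.0544 (SD, n = 3) in STING WT and 0.528 ± 0.062 (SD, n = 3) in STING KO cells. Every STING KO library lay below every STING WT library of its arm (exact permutation, two-sided p = 0.1 in each arm, which 3 against 3 libraries cannot go below; adjusted p = 0.2 over 20 comparisons of shares and ratios). Within a line, RT moved the ratio by 0.0107 in STING WT and by 0.021 in STING KO cells, with overlapping libraries.

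TAPBP encodes tapasin, which bridges TAP and empty class I molecules. Its TPM was 158, 190 and 163 in unirradiated STING WT cells, 136, 156 and 143 in unirradiated STING KO cells, 136, 171 and 133 in irradiated STING WT cells and 136, 129 and 152 in irradiated STING KO cells. The STING KO libraries were all lower at 0 Gy and overlapped the STING WT libraries after RT. Neither difference passed: the log2 fold change was -0.23 at 0 Gy (interval -0.47 to 0.015, limma adjusted p = 0.38) and -0.074 after RT (interval -0.31 to 0.17, limma adjusted p = 0.78).

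The immunoproteasome carries 3 inducible catalytic subunits, and these did not move together. PSMB9 (β1i), which takes the place of PSMB6, was at 41.3, 45.9 and 39.5 TPM in unirradiated STING WT cells and at 24.5, 26.9 and 28.3 TPM in unirradiated STING KO cells. The irradiated values were 38.9, 39.2 and 37.4 TPM in STING WT and 21.6, 21 and 18.3 TPM in STING KO cells. STING KO libraries were lower without overlap in each arm, and PSMB9 had the lowest fold change of the 10 genes in both. The mean was 37.1% lower at 0 Gy (log2 fold change -0.65, SE 0.08, limma adjusted p = 0.0019) and 47.3% lower after RT (log2 fold change -0.90, SE 0.08, limma adjusted p = 0.00012).

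PSMB8 (β5i), the partner of PSMB5, was at 82.5, 83.6 and 74 TPM in unirradiated STING WT cells and at 60.5, 63.2 and 66.1 TPM in unirradiated STING KO cells. After RT it was at 83.1, 73.4 and 72.7 TPM in STING WT and 52.6, 55.8 and 51.6 TPM in STING KO cells. Every STING KO library was below every STING WT library of its arm. The mean was 20.9% lower at 0 Gy (log2 fold change -0.33, SE 0.069, limma adjusted p = 0.04) and 30.2% lower after RT (log2 fold change -0.51, SE 0.069, limma adjusted p = 0.0024). The 0 Gy call lies at the edge of the threshold and held in 5 of 20 alternative settings, with an adjusted p of up to 0.14 in limma, while the direction held in all 20.

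PSMB10 (β2i), the partner of PSMB7, was at 27.8, 28.8 and 24.4 TPM in unirradiated STING WT cells and 28.6, 30.8 and 33.4 TPM in unirradiated STING KO cells. Irradiated, it stood at 24.4, 19.8 and 24 TPM in STING WT and 23.3, 22.8 and 21.5 TPM in STING KO cells. The lines overlapped in each arm, and PSMB10 alone among the 10 genes had a higher mean in unirradiated STING KO cells (log2 fold change 0.19, interval -0.018 to 0.40, limma adjusted p = 0.4). After RT the log2 fold change was -0.008 with an interval from -0.22 to 0.20 (limma adjusted p = 0.98). A further gene on the same strand, AC040162.1, shares 34.8% of the exon bases of PSMB10 and averaged 1.21 to 2.21 TPM across the groups.

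**Figure D3:**
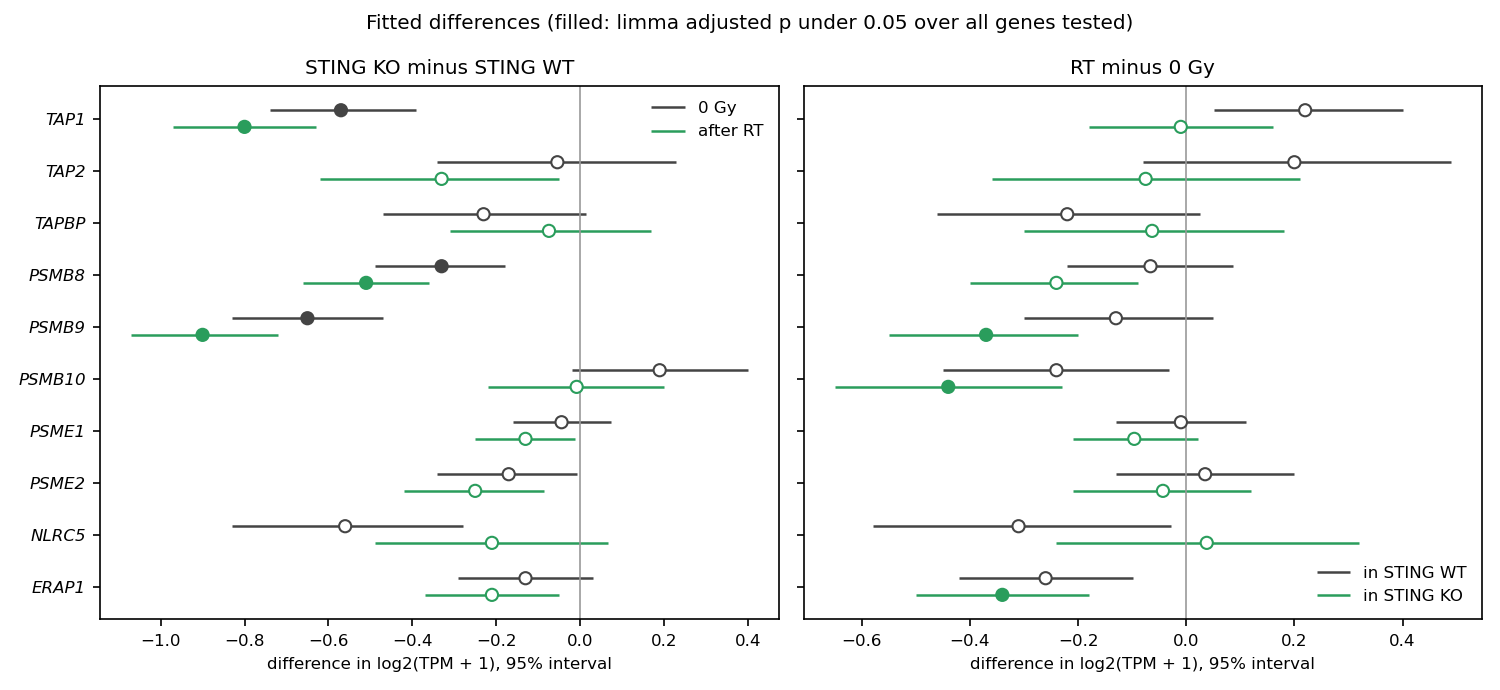
Differences in log2(TPM + 1) for the 10 genes (rows) between STING KO and STING WT cells, left, and between RT and 0 Gy, right, with 95% intervals (horizontal axes) and filled points where the limma adjusted p was under 0.05. On the left PSMB9 (-0.65 and -0.90), TAP1 (-0.57 and -0.80) and PSMB8 (-0.33 and -0.51) are filled in both arms, and on the right PSMB10, PSMB9 and ERAP1 are filled in STING KO cells only, although no difference between the lines in the RT effect passed.

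The standard subunits gave a measure of how far the catalytic pairs were tilted toward the inducible form in each library. PSMB6 was at 174 to 197 TPM in all 12 libraries, with log2 fold changes of -0.02 at 0 Gy and -0.0037 after RT between the lines. PSMB9 accordingly made up 18.1% ± 1.72 (SD, n = 3) of the summed PSMB9 and PSMB6 TPM in unirradiated STING WT cells, but 12.3% ± 1.2 (SD, n = 3) in STING KO cells. After RT the shares were 17.5% ± 0.829 (SD, n = 3) in STING WT and 10% ± 0.764 (SD, n = 3) in STING KO cells. The lines did not overlap in either arm (exact permutation p = 0.1, adjusted p = 0.2).

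For PSMB10 the tilt ran the other way at 0 Gy. The share of PSMB10 in PSMB10 and PSMB7 was 10.4% ± 0.785 (SD, n = 3) in unirradiated STING WT cells and 12.6% ± 1.07 (SD, n = 3) in STING KO cells, without overlap (exact permutation p = 0.1, adjusted p = 0.2). After RT it was 8.51% ± 0.876 (SD, n = 3) against 8.89% ± 0.399 (SD, n = 3), with overlap. At 0 Gy the PSMB10 levels themselves overlapped, while PSMB7 averaged 233 TPM in STING WT and 215 TPM in STING KO cells, without overlap (log2 fold change -0.12, limma adjusted p = 0.22). The share of PSMB8 in PSMB8 and PSMB5 was 36.6% ± 6.3 (SD, n = 3) and 33.8% ± 4.17 (SD, n = 3) at 0 Gy, and 27.4% ± 6.27 (SD, n = 3) and 26.4% ± 4.21 (SD, n = 3) after RT, in STING WT and STING KO cells respectively. Those libraries overlapped in each arm, and PSMB5 itself varied from 106 to 179 TPM within unirradiated STING WT cells. After RT, PSMB5 averaged 208 TPM in STING WT and 151 TPM in STING KO cells, with overlap (log2 fold change -0.45, interval -0.94 to 0.035, limma adjusted p = 0.32). The share of PSMB8 therefore did not separate the lines, although its level did.

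**Figure D4:**
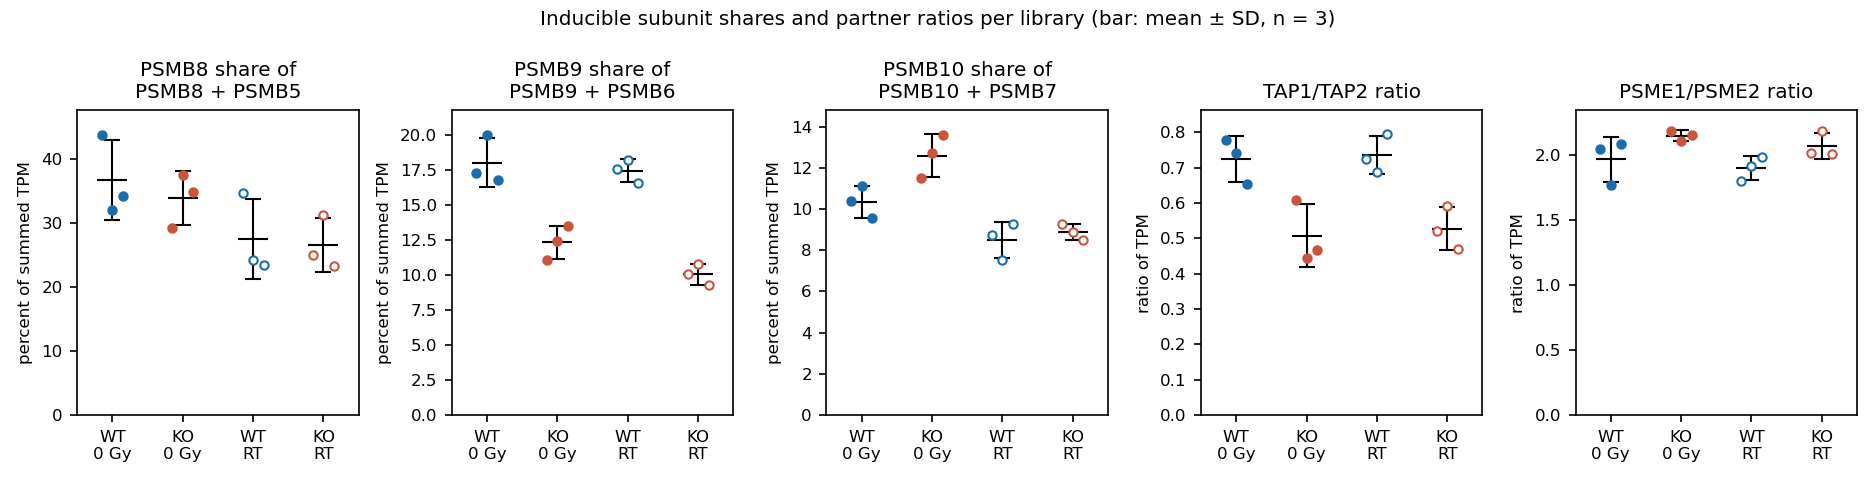
Share of each inducible catalytic subunit in the TPM of its catalytic pair (percent, first 3 panels) and the TAP1/TAP2 and PSME1/PSME2 ratios of TPM (last 2 panels), by group, with 1 point per library, bars for mean ± SD (n = 3) and axes from 0. The PSMB9 share sits at 16.6% to 20% in STING WT libraries and at 9.27% to 13.5% in STING KO libraries, while the PSMB8 share overlaps between the lines.

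PSME1 and PSME2 encode the α and β subunits of PA28, the interferon-inducible cap that opens the proteasome core. PSME1 was nearly level, at 311, 319 and 300 TPM in unirradiated STING WT cells, 313, 281 and 309 TPM in unirradiated STING KO cells, 304, 307 and 312 TPM in irradiated STING WT cells and 278, 298 and 268 TPM in irradiated STING KO cells. The lines overlapped at 0 Gy (log2 fold change -0.044, interval -0.16 to 0.073) and not after RT (log2 fold change -0.13, interval -0.25 to -0.013, limma adjusted p = 0.22). PSME2 was at 152, 181 and 143 TPM in unirradiated STING WT cells and at 143, 133 and 143 TPM in STING KO cells, which lay just apart before rounding. After RT it was at 169, 160 and 157 TPM in STING WT and 138, 136 and 134 TPM in STING KO cells, with no overlap. Its log2 fold changes were -0.17 at 0 Gy (limma adjusted p = 0.33) and -0.25 after RT (limma adjusted p = 0.11), so neither passed. The PSME1/PSME2 ratio was 1.97 ± 0.177 (SD, n = 3) against 2.15 ± 0.041 (SD, n = 3) at 0 Gy and 1.9 ± 0.0937 (SD, n = 3) against 2.07 ± 0.103 (SD, n = 3) after RT, higher in every STING KO library of each arm (exact permutation p = 0.1, adjusted p = 0.2).

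ERAP1, the endoplasmic reticulum aminopeptidase that trims peptides to the length class I molecules hold, did not pass between the lines. It was at 41.4, 44.5 and 37 TPM in unirradiated STING WT cells, 35.3, 37 and 39.6 TPM in unirradiated STING KO cells, 36, 33.3 and 32.7 TPM in irradiated STING WT cells and 29.4, 29.9 and 28.4 TPM in irradiated STING KO cells. The lines overlapped at 0 Gy (log2 fold change -0.13, limma adjusted p = 0.47) and were apart after RT (log2 fold change -0.21, limma adjusted p = 0.16).

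NLRC5 is the transactivator of class I genes, TAP1 and PSMB9 included, and acts with the RFX and NF-Y factors. It was at 17.7, 21.2 and 17.2 TPM in unirradiated STING WT cells and at 12.1, 12.7 and 12.3 TPM in unirradiated STING KO cells, a mean 34% lower with no overlap. The log2 fold change of -0.56 (SE 0.13, interval -0.83 to -0.28) was close to that of TAP1 but did not pass (limma adjusted p = 0.061). After RT it was at 15.4, 15.4 and 14 TPM in STING WT and 13.7, 10.1 and 14.9 TPM in STING KO cells, which overlapped (log2 fold change -0.21, interval -0.49 to 0.066, limma adjusted p = 0.43). The mean before and after RT was 18.7 and 14.9 TPM in STING WT and 12.4 and 12.9 TPM in STING KO cells.

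In STING WT cells RT moved none of the 10 genes past the threshold (limma), beside 3.74% of all genes called. An unadjusted p under 0.05 was found for 4 of the 10 and for 18.2% of all genes. Their median log2 fold change was -0.097, beside 0.017 over all genes, and the libraries did not overlap between RT and 0 Gy for 5 of the 10 (24.8% of all genes). Those 4 genes were ERAP1, with a log2 fold change of -0.26 (limma adjusted p = 0.084), NLRC5 with -0.31 (limma adjusted p = 0.23), PSMB10 with -0.24 (limma adjusted p = 0.21) and, in the other direction, TAP1 with 0.22 (limma adjusted p = 0.16).

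In STING KO cells RT lowered 3 of the 10 genes, beside 3.69% of all genes called, and the libraries did not overlap for 4 of the 10 (24.3% of all genes). PSMB10 was 27.2% lower (log2 fold change -0.44, SE 0.094, limma adjusted p = 0.032), PSMB9 23.7% lower (log2 fold change -0.37, SE 0.08, limma adjusted p = 0.031) and ERAP1 21.6% lower (log2 fold change -0.34, SE 0.072, limma adjusted p = 0.032). The fourth, PSMB8, had a log2 fold change of -0.24 (limma adjusted p = 0.087), while TAP1 was level at -0.01 (interval -0.18 to 0.16). These 3 calls rest on few libraries: leaving out unirradiated STING KO replicate 2 or 3, or irradiated STING KO replicate 2 or 3, left 0 of the 10 called, leaving out irradiated STING KO replicate 1 left 1 and leaving out unirradiated STING KO replicate 1 left 2. Without a filter on low values, or with only the 6 libraries compared in the fit, 0 were called.

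The RT effects were not shown to differ between the lines. For the difference itself, STING KO minus STING WT, 0 of the 10 genes were called by limma, beside 0.0188% of all genes, and 0 had an unadjusted p under 0.05, beside 6.61% of all genes. NLRC5 had the highest value, 0.34 (interval -0.049 to 0.74, limma adjusted p = 0.78), and TAP2 (-0.28, interval -0.68 to 0.12), PSMB9 (-0.25, interval -0.50 to 0.0037) and TAP1 (-0.23, interval -0.48 to 0.011) had the lowest.

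The rest of the proteasome was measured to set the inducible genes in place. The 3 standard catalytic subunits, 11 other subunits of the 20S core, 18 subunits of the 19S cap that admits ubiquitin-tagged proteins and 8 other activators, inhibitors and assembly factors were all tested, and none was called between the lines in either arm. The medians between the lines at 0 Gy were -0.12, 0.019, -0.018 and -0.053 for these lists in the same order, and after RT -0.08, 0.0025, 0.041 and -0.10. With RT, none of these genes was called in either line. The 19S subunits had a median log2 fold change with RT of 0.09 in STING WT and 0.13 in STING KO cells, beside 0.017 and 0.019 over all genes. The medians of the 10 genes had the opposite sign. The 19S genes encode parts of 1 regulatory particle, so they may not be independent measurements.

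Of the 6 partners of the loading complex, which comprise CALR, CANX, PDIA3, TAPBPL, UGGT1 and ERAP2, only TAPBPL was called in any of these 4 comparisons. TAPBPL encodes TAPBPR, a tapasin relative that edits the peptides class I molecules carry. It was 28.3% lower in STING KO than in STING WT cells after RT (log2 fold change -0.45, SE 0.086, limma adjusted p = 0.017) and 24% lower after RT than before it in STING KO cells (log2 fold change -0.37, SE 0.086, limma adjusted p = 0.041). Both TAPBPL calls include the irradiated STING KO libraries (14.7, 14 and 12.8 TPM), so they are not independent. Among 7 cytosolic peptidases, which trim or destroy peptides before transport, LAP3, the leucine aminopeptidase, was the one called. It was 18.5% lower in STING KO cells at 0 Gy (log2 fold change -0.29, SE 0.057, limma adjusted p = 0.029) and 19.9% lower after RT (log2 fold change -0.31, SE 0.057, limma adjusted p = 0.014).

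**Figure D5:**
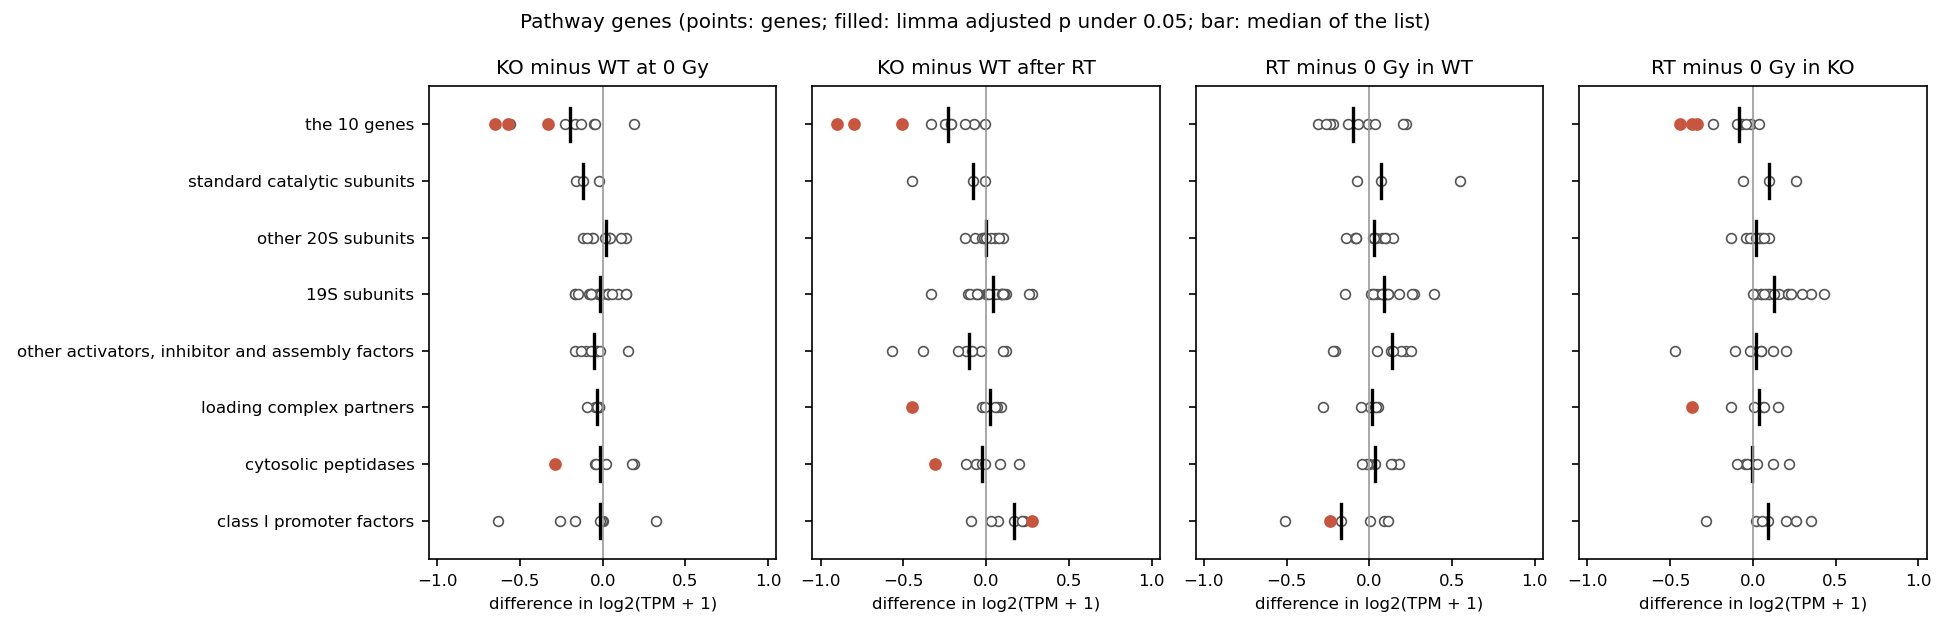
Differences in log2(TPM + 1) (horizontal axes) for each tested gene of the 10-gene set and of 7 pathway lists (rows) in 4 comparisons (panels), with filled points where the limma adjusted p was under 0.05 and a black bar at the median of each list. Filled points between the lines are found among the 10 genes, LAP3, TAPBPL and NFYB, and none among the standard proteasome lists, where medians between the lines at 0 Gy lie between -0.12 and 0.019.

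Factors upstream of these genes were examined as well. IRF1, which binds response elements in TAP1 and PSMB9, was 41.6% lower in STING KO cells after RT (log2 fold change -0.73, limma adjusted p = 0.038) and had a log2 fold change of -0.60 at 0 Gy that did not pass (limma adjusted p = 0.12). Of 7 tested class I promoter factors, NFYB, a subunit of the CCAAT-binding NF-Y, was called: 22.1% higher in STING KO than in STING WT cells after RT (log2 fold change 0.28, limma adjusted p = 0.017) and 15.9% lower with RT in STING WT cells (log2 fold change -0.24, limma adjusted p = 0.034). Both NFYB calls include the irradiated STING WT libraries (34.4, 36.6 and 32.7 TPM), so they are not independent. None of the 7 was called at 0 Gy.

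The class I heavy chains that these genes serve were also lower in STING KO cells. HLA-B was 71% lower at 0 Gy and 72.3% lower after RT, and HLA-C 21% and 29.8% lower, with reads of these near-identical genes hard to assign with certainty. B2M was at 115, 125 and 393 TPM in unirradiated STING WT and 103, 111 and 163 TPM in unirradiated STING KO cells, which overlapped, and at 149 to 196 and 107 to 114 TPM after RT, which did not. Its log2 fold changes of -0.53 (limma adjusted p = 0.59) and -0.58 (limma adjusted p = 0.49) did not pass. HLA-F was called after RT alone (46.9% lower).

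The pattern of TAP1 over the 12 libraries was matched against every other tested gene, as the root mean square of the difference in log2(TPM + 1) after each gene was centred on its own mean. The 5 most alike genes outside the lists were B4GALT5 (0.0801), TRIM21 (0.0863), IFIT5 (0.0863), APOL2 (0.097) and PARP14 (0.0987), where the median of all other genes was 0.391. B4GALT5, a galactosyltransferase, was nearest: it averaged 79 and 55.3 TPM in unirradiated STING WT and STING KO cells and 91.7 and 55.5 TPM after RT. TRIM21 is a cytosolic antibody receptor and ubiquitin ligase, and IFIT5 and PARP14 are interferon-inducible. Of the other 9 genes of the set, PSMB9 (0.198) and PSMB8 (0.199) were most like TAP1 and PSMB10 (0.453) least, less like it than the median gene. TAP2, the partner of TAP1, was at 0.281.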

How the data were processed

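Polyadenylated RNA was sequenced as 100 bp paired ends, and the authors deposited TPM for 58288 genes in 12 libraries, with no scaling between libraries. The submitters' processing notes name HISAT2, StringTie, DESeq2 and hg38; roles, annotation and strand setting are not given in the sources used here. Groups came from the sample labels. The column names differ from the labels: NT2 was read as STING WT from the non-targeting guide in the methods and A63, the remaining code, as STING KO, which TMEM173 levels matched.

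Counts were not used here, so DESeq2 could not be run. Values of log2(TPM + 1) entered limma 3.58.1 in R 4.3.3 (4 group means, 5 contrasts, eBayes with trend, 8 residual degrees of freedom) for 15973 genes with at least 1 TPM in 3 libraries, with Benjamini-Hochberg adjustment over all of them. The pseudocount understates changes of low genes. The code was tested on simulated data. Single shares and ratios used two-sided exact permutation tests. Depth is unknown. The members and lists were chosen with earlier results of these data known. Named genes were the members, TMEM173, PSMB5, PSMB6, PSMB7, IRF1, B2M, any other list gene past the threshold and the 5 genes most like TAP1; the result of 1 further list gene is not reported here. Of 10 housekeeping genes only TUBB was called, lower with RT in both lines; of the epithelial markers, EPCAM was higher with RT in both. Promoter windows came from RefSeq, where NLRC5 had no entry. Alternatives tried were quantile normalization, median-of-ratios factors, a pseudocount of 0.1, a filter at a mean of 5 TPM or none, eBayes without trend, a replicate block, fits to only the libraries compared and each library left out in turn.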

Additional observations from a re-analysis of the deposited data

How the results depend on the processing

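Of the 990 alternative values of the 10 genes, 0 reversed a called direction, 944 stayed on the same side of the threshold, 40 lost a call and 6 gained one, and 16 uncalled values near 0 changed sign. Fits to only the libraries compared, which have fewer degrees of freedom, called 1 of the 10 genes for STING KO at 0 Gy and 0 for RT in STING KO cells, in place of 3 and 3. Without a filter 0 were called for RT in STING KO cells, and with median-of-ratios factors 1 (ERAP1) was called for RT in STING WT cells and 4 for RT in STING KO cells. With each library left out, the genes called ranged from 2 to 3 for STING KO at 0 Gy, from 3 to 4 for STING KO after RT (PSME2 was added without unirradiated STING WT replicate 2, limma adjusted p = 0.023), from 0 to 1 for RT in STING WT cells (ERAP1 without unirradiated STING WT replicate 3), from 0 to 3 for RT in STING KO cells and stayed at 0 for the difference of the RT effects. NLRC5 at 0 Gy was called in 2 of 20 alternatives, without irradiated STING KO replicate 2 or 3 (limma adjusted p from 0.011 to 0.18 over the 20), and PSMB8 at 0 Gy kept its call in 2 of the 12 fits that each left out a library.

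Samples with the same replicate number did not deviate together (0 of 18 pairs correlated over 0.1), so the numbers do not pair them. With the replicate number as a block, 2, 3, 0 and 0 of the 10 genes were called for STING KO at 0 Gy, STING KO after RT, RT in STING WT and RT in STING KO cells.

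Over all genes, the 276, 573, 597, 590 and 3 calls of the 5 comparisons became 211, 378, 315, 359 and 1 with the block. They became 103, 252, 166 and 195 in fits to only the libraries compared, where the difference of the RT effects cannot be fitted. They ranged over 172 to 292, 313 to 542, 242 to 526, 268 to 553 and 1 to 9 with each library left out, and without a filter the last was 7 and with eBayes without trend 1. The causes were not tested. TPM keeps no depth, so counting error could not be set against any of these differences.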
